A study of Arabidopsis thaliana with 6 samples.

Results

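The RAB GTPase family of Arabidopsis thaliana was followed in mature pollen of wild type and of NOT1 heterozygotes (NOT1+/-). Its members were taken from a list of 56 locus codes covering the subfamilies RABA to RABH. Of these, 55 had a value among the 27827 features of the array, and RABA4e was not analysed here. They comprised 25 RABA, 3 RABB, 3 RABC, 4 RABD, 4 RABE, 3 RABF, 8 RABG and 5 RABH genes. RABE1b was not on the list and was not analysed. Both groups were of the ecotype Columbia 0 and had 3 biological replicates each, with about 300000 sorted grains per sample. NOT1 is the scaffold of the CCR4-NOT deadenylase, which removes poly(A) tails and starts the decay of messenger RNAs. A heterozygous plant makes grains with and without the mutant allele, and both kinds are in each NOT1+/- sample. The labels give neither the kind of mutation nor the number of plants pooled per sample.

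RAB GTPases are molecular switches that mark the membranes of the secretory and endocytic systems. Bound to GTP, and anchored in the membrane by prenyl groups, they recruit the motors, kinases and tethers that move and dock vesicles. Bound to GDP, they are drawn off the membrane by a dissociation inhibitor. A pollen tube grows by exocytosis at its tip, which makes it one of the most traffic-dependent plant cells. RABD and RABB proteins act between the endoplasmic reticulum and the Golgi apparatus, RABH proteins at the Golgi, and RABE and RABA proteins on the way from the Golgi and the trans-Golgi network to the cell surface. RABF proteins act on endosomes and RABG proteins at the vacuole. RABA4d is known for its role at the tip of the Arabidopsis pollen tube, and RABD2b and RABD2c for a shared role in pollen tube growth.

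The measurement is an intensity in linear units, with 1 value per locus and array. Array medians lay between 12.03 and 13.13. The 95th percentiles reached from 132.8 to 141 on the wild-type arrays and from 193 to 202 on the mutant ones. The upper end of the intensities thus lay higher in NOT1+/-. No detection calls were used, so a dim value cannot be separated from background, and the number of arrays limits the precision. NOT1 itself had 47.6, 51.02 and 46.9 in wild type and 28.6, 31.8 and 32.6 in NOT1+/-, so the groups did not overlap. Its log2 fold change was -0.65 (SE 0.15, limma adjusted p = 0.029), and the exact two-sided permutation p was 0.1, the lowest this number of arrays can give. Leaving out any single array ended the call. The summed intensity of 6 vegetative cell markers was 8199 to 8864 in wild type and 8968 to 9718 in NOT1+/-, and that of 4 sperm cell markers 267 to 287 and 327 to 509. In each list 2 markers were called higher and none lower: VEX1, whose mean went from 39.3 to 554, and ANX1, from 853 to 1306, in the vegetative cell, and MGH3 and DUO1 in sperm. The other 4 vegetative cell markers were not called, 2 with estimates above 0 and 2 below. Among them ANX2 went from 1404 to 1150 without overlap. In sperm HAP2 (0.31) and GEX2 (-0.09) were not called, so the higher sums were not shared by all markers. Markers of other tissues had lower sums. In wild type and NOT1+/-, the 4 photosynthesis genes together reached 46.8 and 34.0 at most. The 5 tapetum genes reached 103.7 and 89.1, and the 5 floral organ genes 57.3 and 57.9. The tapetum genes A9 and GRP17 and the floral gene PI lay above the median on every array. None of the 14 photosynthesis, tapetum and floral organ markers was called higher, while 5 were called lower, against 8.84% and 3.22% of all features. Of those called lower, CAB2, EXL4 and SHP1 did not exceed the median on any array, so their signal may be background. In such bulk samples fewer cells of a type and less RNA per cell cannot be told apart.

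In wild-type pollen the RAB genes ranged from dim to very bright, and RABA and RABD held genes of both kinds. A total of 9 members lay above the 95th percentile on all 3 wild-type arrays: RABA1f, RABA1h, RABA1i, RABA4d, RABA5a, RABB1c, RABD2b, RABF2b and RABH1e. Another 7 lay at or below the median on all 3, namely RABA1e, RABA4b, RABA5c, RABA5d, RABD1, RABE1d and RABG1, and the other 39 lay between or crossed a limit. The brightest was RABA1i, with 1166, 1070 and 1130, followed by RABB1c with 505, 483 and 508. RABA4d lay just inside the upper limit, with 142.2 against a limit of 141.4 on its nearest array. RABG2 lay just outside, with 132.72 against 132.79, and RABH1b had 131.6 on the array whose limit was 139. Features differ in how well their probes bind, so these positions describe signal and do not rank transcript amounts between genes.

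**Figure D1:**
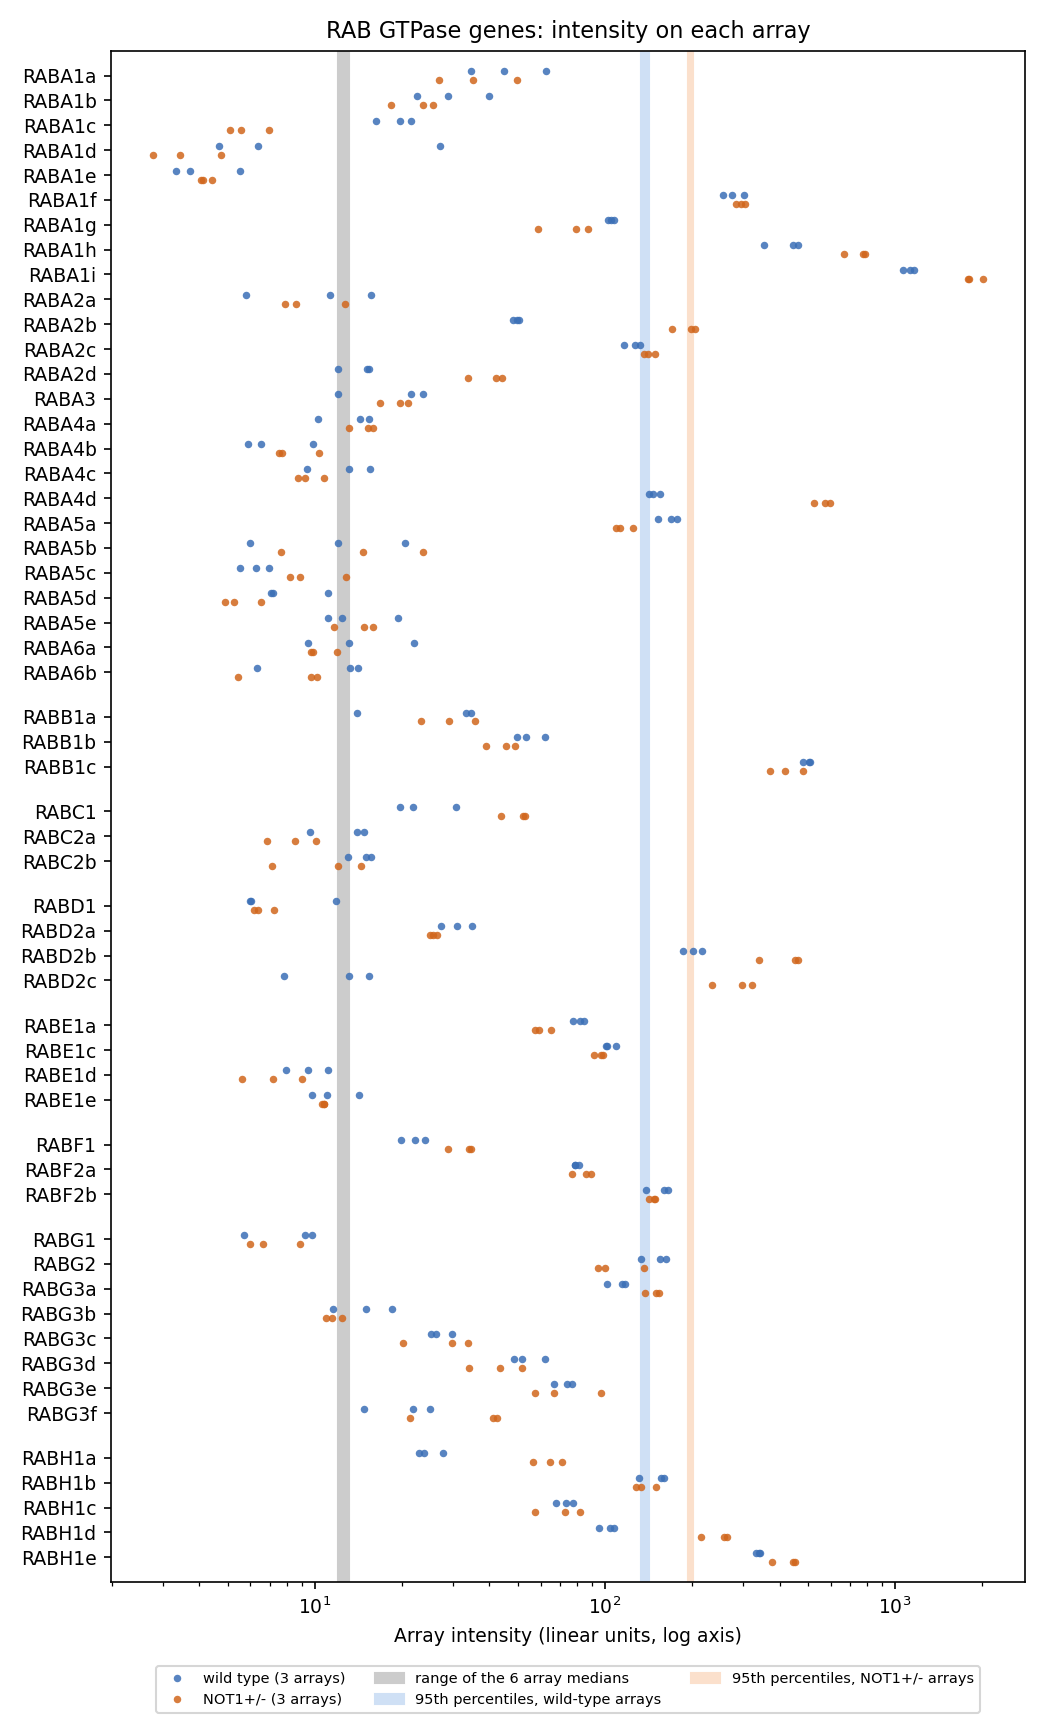
Intensity of each of the 55 RAB genes on each array, on a log axis, with wild-type arrays in blue and NOT1+/- arrays in orange, grouped by subfamily from RABA to RABH. Grey marks the array medians (12.03 to 13.13) and the blue and orange bands the 95th percentiles; RABA4d, RABA2b and RABD2c show the widest gaps between genotypes among the genes that were higher in NOT1+/-.

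Expression in NOT1+/- was compared with wild type by limma over all 27827 features, and a gene was called at a Benjamini-Hochberg adjusted p under 0.05. Of the 55 RAB genes 10 were called higher, or 18.2%, against 8.84% of all features. One gene, RABA1c, was called lower (1.82% against 3.22%). The rises came from RABA (RABA1h, RABA1i, RABA2b, RABA2d and RABA4d), RABC (RABC1), RABD (RABD2b and RABD2c) and RABH (RABH1a and RABH1d). No member of RABB, RABE, RABF or RABG passed. At an unadjusted p under 0.05 limma gave 13 of the 55 RAB genes higher and 6 of the 55 lower, against 13.2% and 12.5% of all features. The other 44 members did not pass, 16 with estimates above 0 and 28 below. In 15 of the 55 members all mutant values lay above all wild-type values, against 14.9% of all features. In 9 of the 55 all lay below, against 16.9% of all features, and in 31 the groups overlapped. The median log2 fold change of the family was -0.06, beside -0.10 over all features, so the typical RAB gene was close to the typical feature and the family's rises lay in a few genes.

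The balance of calls depended on how the arrays were scaled. Quantile normalization brings the upper percentiles of the arrays together. After it, 8 of the 55 RAB genes were called higher and 10 of the 55 lower, against 7.91% and 7.15% of all features. The family median was then -0.29. RABA1h and RABD2b were then no longer called. The added falls were RABA1f, RABA1g, RABA5a, RABB1c, RABE1a, RABE1c, RABF2b, RABG2 and RABH1b, all from features well above the array medians. After centring on the 75th percentile 10 were higher and 2 lower (7.95% and 5.25% of all features), and after centring on the median 11 and 1 (9.68% and 2.05%). With eBayes set to trend and robust 13 were higher and 4 lower (10.5% and 5.24%), and with 16 units added before log2 also 13 and 4 (10.6% and 5.35%). RABA2b, RABA2d, RABA4d, RABD2c, RABH1a and RABH1d were called higher under all 14 alternatives, and RABA1c lower under all 13 that tested it.

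**Figure D2:**
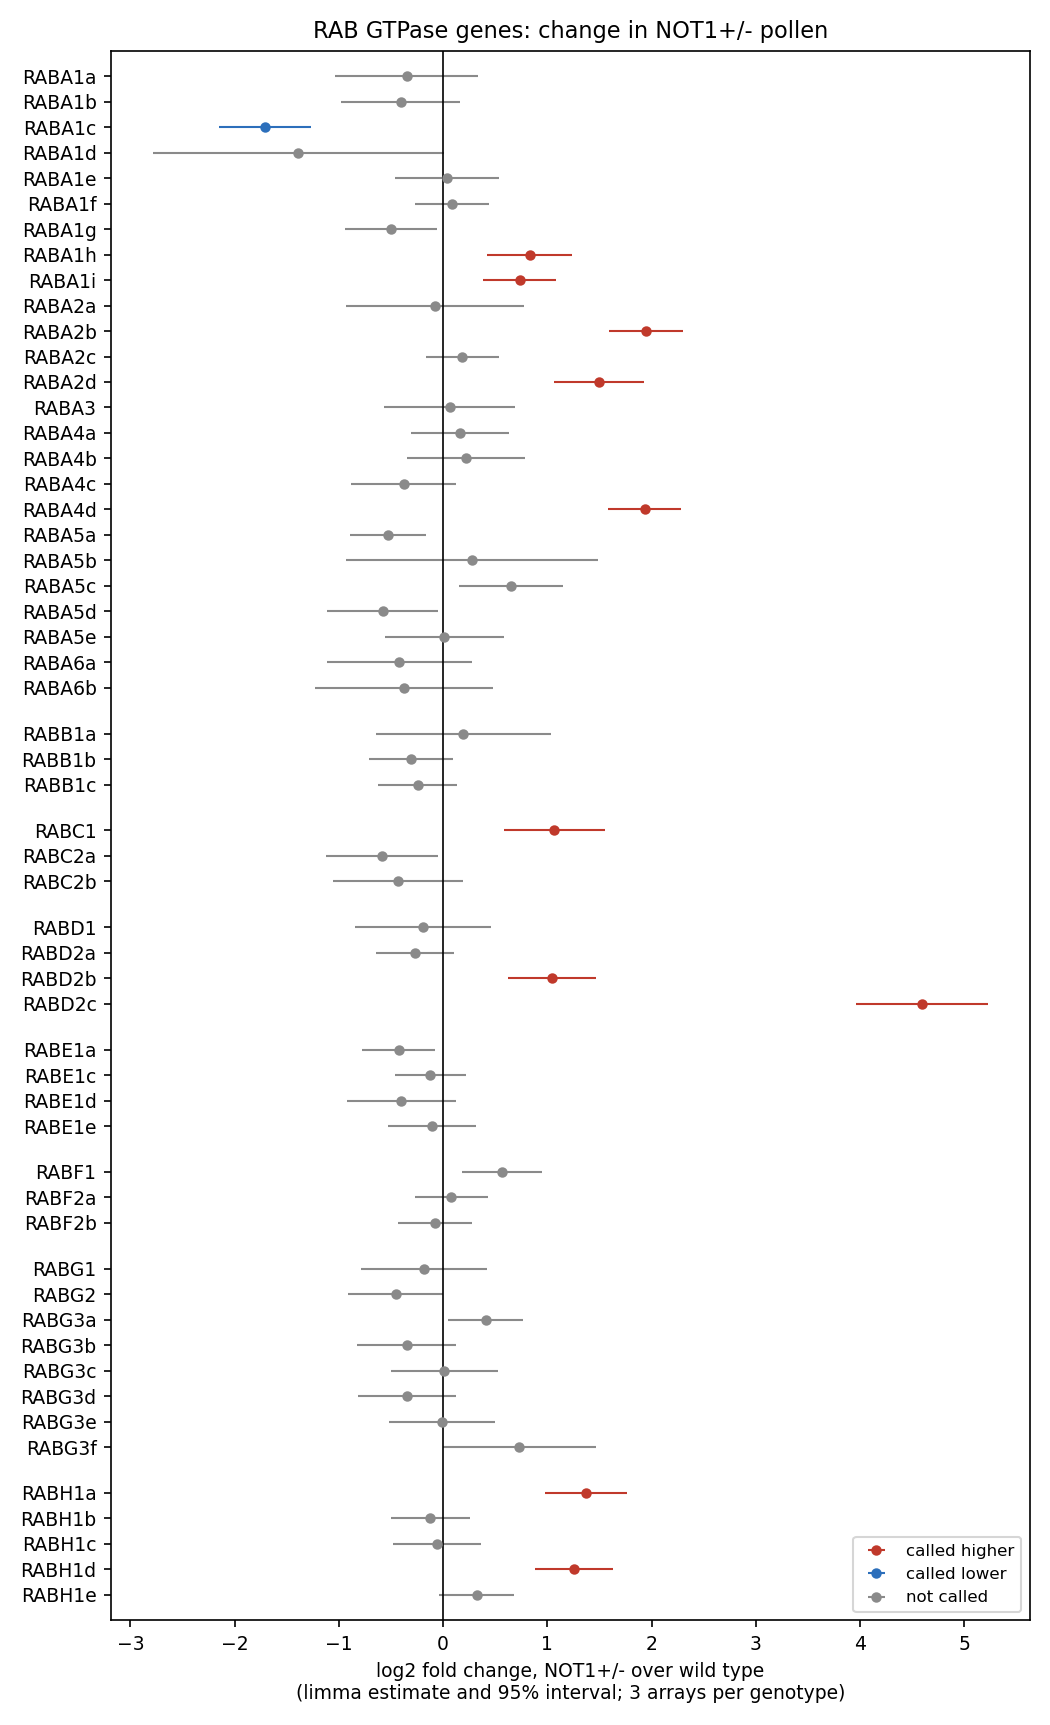
Log2 fold change of the 55 RAB genes in NOT1+/- over wild type with its 95% interval from limma (3 arrays per genotype), grouped by subfamily. Red marks the 10 genes called higher, blue RABA1c, the 1 called lower, and grey the other 44; RABD2c stands far to the right at 4.59.

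Within the RABA4 group only RABA4d was bright in pollen, and only RABA4d was called. RABA4d (AT3G12160_at) recruits a phosphatidylinositol 4-kinase and acts at the tip of growing pollen tubes, while RABA4b has the corresponding role in root hairs. The intensity of RABA4d was 155, 142 and 146 in wild type and 597, 574 and 525 in NOT1+/-. All 3 mutant values were more than 3 times the highest wild-type value, with little spread inside either group. On the log2 scale the change was 1.93 (SE 0.15, 95% interval 1.58 to 2.28, limma adjusted p = 1.12e-04), a rise of 3.82-fold, and it was 1.34 after quantile normalization. RABA4a had wild-type and NOT1+/- means of 13.3 ± 2.70 and 14.7 ± 1.43, RABA4b 7.42 ± 2.14 and 8.52 ± 1.60, and RABA4c 12.7 ± 3.06 and 9.57 ± 1.04 (SD, n = 3 arrays each). These genes lay near or below the array medians in both genotypes, and their groups overlapped. Their log2 fold changes were 0.16, 0.22 and -0.38, with 95% intervals that together ran from -0.88 to 0.78, and none was called (limma adjusted p = 0.33 to 0.66). The change of RABA4d exceeded that of RABA4a by 1.77 (SE 0.22), that of RABA4b by 1.71 (SE 0.28) and that of RABA4c by 2.31 (SE 0.23) on the log2 scale. In each case the ratio of the genes in all mutant arrays lay above that in all wild-type arrays. The exact two-sided permutation p was 0.1, the smallest possible, and 0.11 adjusted over 39 such pairs within groups. Each of these pairs held a gene called on these same arrays, which makes such a separation likely in advance. Of the 33 pairs of a called with an uncalled gene, 31 had ratios that did not overlap, so the pairs are given as a description.

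The RABD subfamily held the largest rise of the family. RABD proteins carry traffic from the endoplasmic reticulum to the Golgi, and RABD2b and RABD2c are close relatives. RABD2c (AT4G17530_at) had 15.4, 7.84 and 13.1 in wild type, near the array medians, and 321, 298 and 234 in NOT1+/-. Its place among the features of an array moved from between the 18.3 and 59.6 percentiles to between 95.6 and 96.5. This was a log2 fold change of 4.59 (SE 0.27, 95% interval 3.96 to 5.23, limma adjusted p = 3.28e-05). Its size is uncertain because the wild-type signal was at the level of the array medians, and it was 3.41 with 16 units added before log2. RABD2b (AT5G47200_at) was already bright in wild type, with 200.5, 217 and 186, and had 462, 451 and 341 in NOT1+/-. It rose by a log2 fold change of 1.04 (SE 0.18, adjusted p = 0.0074). After quantile normalization the value was 0.39 and the call was lost (adjusted p = 0.20). Probe sequences were not used here, so whether the probes separate these related transcripts was not tested. The change of RABD2b minus that of RABD2c was -3.55 (SE 0.34) on the log2 scale (exact permutation p = 0.1, adjusted p = 0.11).

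RABD2a and RABD1 did not follow. RABD2a had 31.0, 34.8 and 27.2 in wild type and 25.0, 25.5 and 26.3 in NOT1+/-, with a log2 fold change of -0.27 (95% interval -0.64 to 0.11, limma adjusted p = 0.35). All mutant values lay below the wild-type values, but the lowest wild-type and highest mutant values nearly met. RABD2a lies close to NOT1, 5 protein-coding genes away on chromosome 1 in the gene order of the reference table. RABD1 was dim in both genotypes, with means of 7.95 ± 3.37 and 6.60 ± 0.563. The change of RABD2b exceeded that of RABD2a by 1.31 (SE 0.17) and that of RABD2c exceeded it by 4.86 (SE 0.41), with no overlap of the ratios (exact permutation p = 0.1 for each, adjusted p = 0.11).

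The RABA1 group, which acts between the trans-Golgi network and the plasma membrane, changed in both directions. RABA1i (AT1G28550_at), the RAB feature with the highest signal, had 1166, 1070 and 1130 in wild type and 2017, 1792 and 1805 in NOT1+/-. The values of RABA1h (AT2G33870_at) were 353, 465 and 444 in wild type and 778, 792 and 666 in NOT1+/-. Neither gene had overlapping groups. Their log2 fold changes were 0.74 (SE 0.15, limma adjusted p = 0.016) and 0.83 (SE 0.18, adjusted p = 0.020), or 1.67-fold and 1.78-fold. Whether the probes separate RABA1h from RABA1i was not tested, as probe sequences were not used. Both calls were close to the threshold. That of RABA1i was lost without wild-type replicate 2 (adjusted p = 0.063) or NOT1+/- replicate 1 (0.075) or 2 (0.055), and that of RABA1h without wild-type replicate 1 (0.065) or NOT1+/- replicate 1 (0.084) or 2 (0.082) and after quantile normalization (0.26 on the log2 scale, adjusted p = 0.38).

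RABA1c (AT5G45750_at) was the only RAB gene called lower in the comparison as deposited. It had 19.7, 21.4 and 16.3 in wild type and 5.10, 6.93 and 5.56 in NOT1+/-. The wild-type values lay above the array medians and the mutant values well below them, between the 5.75 and 15.7 percentiles. It fell, with a log2 fold change of -1.71 (SE 0.19, 95% interval -2.15 to -1.27, limma adjusted p = 7.21e-04). Since the mutant signal may be background, the size of the fall is uncertain, and it was -0.68 with 16 units added. The change of RABA1c was lower than that of RABA1h by a log2 difference of -2.54 (SE 0.22) and than that of RABA1i by -2.45 (SE 0.22), and neither ratio overlapped between genotypes (exact permutation p = 0.1, adjusted p = 0.11).

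The other 6 RABA1 genes did not pass. RABA1f was bright and nearly level, with 256, 301 and 274 in wild type and 294, 303 and 283 in NOT1+/- (log2 fold change 0.08, 95% interval -0.27 to 0.44). After quantile normalization it was called lower instead (-0.54, limma adjusted p = 0.049). RABA1g went from 105 ± 2.47 to 75.2 ± 14.9, without overlap of the groups (-0.50, adjusted p = 0.15). This gene was called lower after quantile normalization (adjusted p = 0.017), with eBayes set to trend and robust (0.039) and with 16 units added (0.040). RABA1a and RABA1b had log2 fold changes of -0.35 and -0.41 with overlapping groups. RABA1d had 6.38, 4.66 and 27.00 in wild type, so its estimate of -1.39 (95% interval -2.78 to 0.01) rested on a single bright array, replicate 3. RABA1e was dim throughout, with 4.18 ± 1.16 and 4.19 ± 0.206.

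In the RABA2 group, whose proteins are known from the cell plate of dividing root cells, RABA2b and RABA2d rose. RABA2b (AT1G07410_at) had 48.4, 49.6 and 50.6 in wild type and 205, 199 and 171.0 in NOT1+/-. This was a clear separation, with a log2 fold change of 1.95 (SE 0.15, limma adjusted p = 1.23e-04), or 3.86-fold. RABA2d (AT5G59150_at) rose from 15.2, 12.00 and 15.4, close to the array medians, to 44.3, 42.3 and 33.8 (1.50, SE 0.19, adjusted p = 0.0013). Its wild-type level makes this size uncertain, and it was 0.89 with 16 units added. RABA2c, the brightest of the group in wild type, had 116, 127 and 132 there and 137, 141 and 148 in NOT1+/-. Its groups did not overlap, but the log2 fold change was 0.18 (95% interval -0.16 to 0.53) and was not called. RABA2a stayed near the medians, at 10.9 ± 4.95 and 9.75 ± 2.60. The change of RABA2b exceeded that of RABA2c by 1.76 (SE 0.12), and that of RABA2d exceeded it by 1.31 (SE 0.20), with no overlap of the ratios (exact permutation p = 0.1, adjusted p = 0.11).

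RABA3, RABA5 and RABA6 had no called gene. RABA3, which shares the cell plate role, had 19.0 ± 6.14 in wild type and 19.1 ± 2.11 in NOT1+/-. RABA5a was the bright member of its group, with 152, 178 and 169 in wild type and 113, 109 and 125 in NOT1+/-. All its mutant values lay below the wild-type values (log2 fold change -0.53, 95% interval -0.89 to -0.16, limma adjusted p = 0.072), and it passed after quantile normalization, after centring on the 75th percentile and under 3 other alternatives. RABA5c, known from the edges of growing root cells, went from 6.24 ± 0.730 to 9.95 ± 2.49, below the array medians in wild type, and RABA5d from 8.43 ± 2.32 to 5.56 ± 0.868 (adjusted p = 0.099 and 0.16). RABA5b and RABA5e had estimates of 0.28 and 0.01, and RABA6a and RABA6b of -0.42 and -0.38, all with overlapping groups.

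RABH1a and RABH1d rose by similar amounts. RABH proteins belong to the Rab6 class of the Golgi. RABH1d (AT2G22290_at) had 95.4, 104 and 107 in wild type and 263, 258 and 215 in NOT1+/-, and RABH1a (AT5G64990_at) 22.8, 27.6 and 23.8 against 71.2, 64.8 and 56.5. In both genes every mutant value lay far above every wild-type value. The log2 fold changes were 1.26 (SE 0.16, limma adjusted p = 0.0016) and 1.37 (SE 0.17, adjusted p = 0.0013). After quantile normalization the value of RABH1d was 0.75, still called. They differed by 0.12 (SE 0.08; exact permutation p = 0.3). RABH1e, the brightest of the subfamily in wild type, had 332, 342 and 339 there and 445, 451 and 377 in NOT1+/-, without overlap. Its log2 fold change was 0.33 (95% interval -0.03 to 0.69, adjusted p = 0.24), and it was -0.32 after quantile normalization. It was called higher with eBayes set to trend and robust (adjusted p = 0.026) and with 16 units added (adjusted p = 0.046). RABH1b, known for the trafficking of cellulose synthase, went from 149 ± 15.4 to 137 ± 11.4 and RABH1c from 72.9 ± 5.01 to 70.7 ± 12.3, with log2 fold changes of -0.12 and -0.06. The changes of RABH1d and RABH1a exceeded that of RABH1b by 1.38 (SE 0.15) and 1.49 (SE 0.14), with no overlap of the ratios (exact permutation p = 0.1, adjusted p = 0.11).

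RABC1 (AT1G43890_at), a protein of the Rab18 class that acts at lipid droplets in Arabidopsis, was the only RABC gene called. It had 19.7, 21.9 and 30.6 in wild type and 52.01, 53.02 and 44.0 in NOT1+/-, with wild-type replicate 3 nearest to the mutant values. The log2 fold change was 1.07 (SE 0.21, limma adjusted p = 0.013). The call was lost without wild-type replicate 2 (adjusted p = 0.0503) or NOT1+/- replicate 1 (0.062) or 2 (0.060). RABC2a and RABC2b were near the array medians, with log2 fold changes of -0.58 and -0.43 and overlapping groups. Each lies beside a RABE gene in the gene order, RABC2a beside RABE1d and RABC2b beside RABE1e, and these neighbours had estimates of -0.40 and -0.11.

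**Figure D3:**
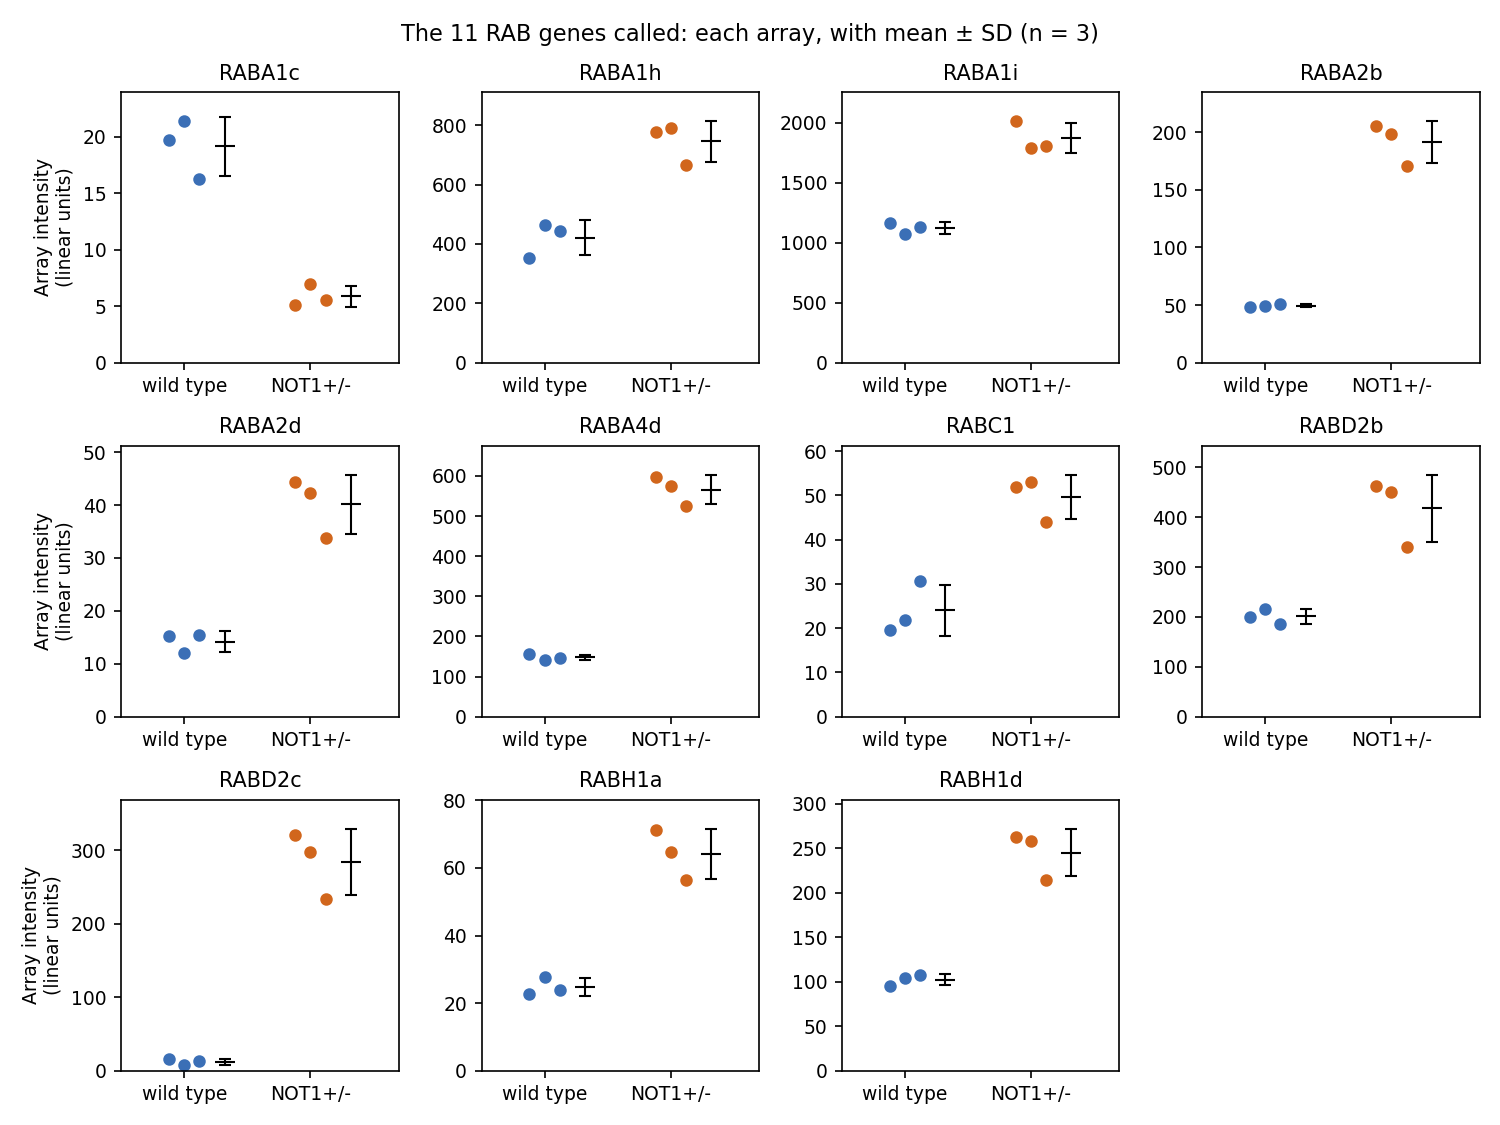
Intensity on each array for the 11 RAB genes called, each panel on its own linear axis from 0, with blue for wild type, orange for NOT1+/- and a bar for the mean ± SD of 3 arrays. The groups overlap in none of the panels, and NOT1+/- replicate 3, the right-most orange point, is the lowest mutant value in 9 of the 10 genes that rose.

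In 9 of the 10 RAB genes called higher, NOT1+/- replicate 3 had the lowest mutant value, the exception being RABA1i. The same array was lowest in 77.5% of the 2461 features called higher. That array also had the highest summed sperm marker intensity, 509 against 327 and 363. Without it the same counts were obtained, 10 RAB genes higher and 1 lower. Without NOT1+/- replicate 1 or 2, 7 were called higher. The shares of all features called in these fits are not given, and whether calls fell alike over all features was not tested.

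No listed gene of RABB, RABE, RABF or RABG was called. RABB1c, a Rab2-class protein related to one that acts in tobacco pollen tubes, was the second brightest RAB feature, with 505, 483 and 508 in wild type and 370, 418 and 482 in NOT1+/-. The groups just failed to overlap (log2 fold change -0.24, 95% interval -0.63 to 0.14). RABB1b, with 55.1 ± 6.51 and 44.5 ± 5.21, had -0.31. RABB1a, the direct neighbour of RABB1c in the gene order, had an estimate of 0.19 with overlapping groups. The 4 listed RABE genes, of the Rab8 class that serves secretion at the plasma membrane, had estimates from -0.43 to -0.11. Among them RABE1c, the brightest in wild type, had 102, 110 and 101 there and 97.2, 98.3 and 91.7 in NOT1+/-, slightly lower and without overlap (-0.12, 95% interval -0.46 to 0.22). RABE1a went from 81.4 ± 3.33 to 60.6 ± 4.32, without overlap (-0.43, limma adjusted p = 0.12). After quantile normalization it was called lower (adjusted p = 0.010). The same held with eBayes set to trend and robust (0.030), among features above the median level (0.037) and with 16 units added (0.017). RABE1d and RABE1e lay around or below the array medians.

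The endosomal RABF genes were close to level. RABF2b (ARA7) had 139, 165 and 160 in wild type and 149, 147 and 142 in NOT1+/- (log2 fold change -0.08, 95% interval -0.44 to 0.28), and RABF2a (RHA1) had 79.6 ± 1.40 and 84.1 ± 6.48 (0.08, 95% interval -0.27 to 0.43). RABF1 (ARA6), the plant-specific member of the class, had 22.1, 23.9 and 19.8 against 34.5, 34.0 and 28.8. Its groups did not overlap, and the estimate of 0.56 missed the threshold (limma adjusted p = 0.069) but passed after median centring (0.040) and under 3 other alternatives. The 8 vacuolar RABG genes had estimates from -0.45 to 0.73. RABG2, the brightest in wild type, had 133, 155 and 163 there and 94.7, 100 and 137 in NOT1+/-, where replicate 3 overlapped with wild type. RABG3a went from 111 ± 8.35 to 147 ± 8.33 without overlap (0.41, adjusted p = 0.14). It was called higher with eBayes set to trend and robust (adjusted p = 0.021), among features above the median level (0.049) and with 16 units added (0.018), while after quantile normalization its estimate was -0.05. RABG3f had 14.8, 21.9 and 24.9 against 41.1, 42.3 and 21.3, so a single mutant array lay among the wild-type values (0.73, adjusted p = 0.20). RABG3b, RABG3c, RABG3d and RABG3e had estimates between -0.35 and 0.01, and RABG1 was dim in both genotypes, with -0.18.

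**Figure D4:**
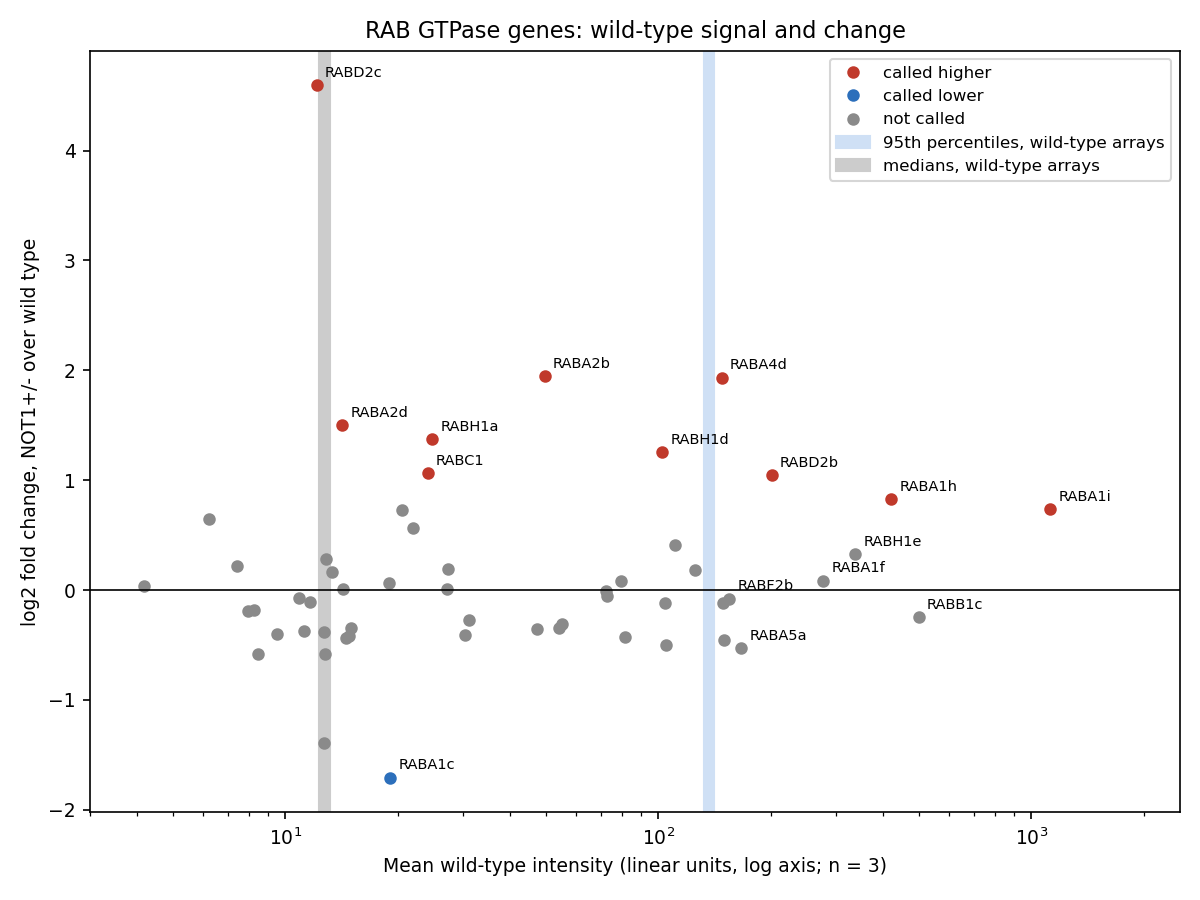
Mean wild-type intensity (log axis, n = 3) against log2 fold change in NOT1+/- for the 55 RAB genes; labels mark the called genes and those above the 95th percentile on all wild-type arrays. Of the 9 bright genes on the right, 4 are called higher, while RABD2c at the upper left rises from the level of the array medians.

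Bright RAB genes were compared with the rest as a description, since the same wild-type arrays set both the brightness and the change. Among the 9 members above the 95th percentile on all wild-type arrays, RABA1h, RABA1i, RABA4d and RABD2b were called higher and none lower, and their median log2 fold change was 0.33. Of all 1319 features in that range 17.2% were called higher and 6.22% lower, with a median of 0.02. Among the 39 members in the middle range 6 were higher and 1 lower, against 9.16% and 4.50% of all features there. None of the 7 dim members was called, against 7.21% and 0.684%. The known pollen genes RABA4d, RABD2b and RABD2c all rose, whereas RABA1f, RABA5a, RABB1c, RABF2b and RABH1e lay above the same wild-type percentile as RABA4d and were not called. In NOT1+/- the members above the 95th percentile of all 3 arrays again numbered 9, as RABD2c and RABH1d had entered and RABA5a and RABF2b had left.

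Genes that act on RAB proteins were examined in 4 lists holding 50 genes. Of these, 7 were called higher and 2 lower, against 8.84% and 3.22% of all features, and their median log2 fold change was 0.10. In the list for delivery and prenylation, 2 of 7 rose, both of them GDP dissociation inhibitors, which extract RAB proteins from membranes. GDI3 had 265, 262 and 287 in wild type and 625, 624 and 505 in NOT1+/- (1.10 on the log2 scale, SE 0.16, limma adjusted p = 0.0033), and GDI2 had 114, 103 and 115 against 205.5, 201 and 186 (0.84, SE 0.15, adjusted p = 0.0090). Both calls were lost after quantile normalization, with 0.47 and 0.35. The escort protein REP and the 4 subunits of the RAB geranylgeranyl transferase, which attach the prenyl anchor, were not called (-0.59 to 0.19).

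Among 15 genes of exchange factors, which load RAB proteins with GTP, 5 rose and none fell, against 8.84% and 3.22% of all features. MON1 and CCZ1 form the factor that activates RABG3 proteins on late endosomes. MON1 had 25.6, 27.8 and 26.2 in wild type and 46.0, 48.3 and 47.4 in NOT1+/- (0.83, SE 0.15, limma adjusted p = 0.0080), and CCZ1b had 51.9, 46.9 and 60.3 against 125, 152 and 112 (1.28, SE 0.19, adjusted p = 0.0029), while CCZ1a stayed near or below the medians and was not called. The other rises were core subunits of the TRAPP complexes, named here from their yeast counterparts: BET3 (1.48, SE 0.20, adjusted p = 0.0021), BET5 (1.16, SE 0.22, adjusted p = 0.011) and TRS23 (0.77, SE 0.20, adjusted p = 0.045). With 16 units added these values were 0.87, 0.76 and 0.27, and the call of TRS23 was lost (adjusted p = 0.064). The wild-type signal of BET3, with 14.2, 11.2 and 16.8, was near the array medians, so its size is uncertain as well. TRS23 lay below the array median on all arrays but NOT1+/- replicate 2, and its call was lost when any 1 array other than wild-type replicate 3 was left out; that of BET5 was lost without NOT1+/- replicate 1 (adjusted p = 0.0503). The RABF exchange factor VPS9A had -0.27, and SCD1 and SCD2, partners of RABE proteins, had -0.27 and -0.12. None of these 3 was called.

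Of 10 effectors and tethers only VPS41 was called, a subunit of the tether that docks membranes at the vacuole. It fell from 137, 145 and 138 to 89.2, 96.3 and 93.8 (-0.59, SE 0.15, limma adjusted p = 0.037), but leaving out any single array ended this call. After quantile normalization the value was -1.04. PI4KB1 and PI4KB2, the kinases recruited by RABA4 proteins, had -0.45 and -0.35 and were not called, beside the rise of RABA4d. Of 18 PRA1 genes, which encode membrane proteins that bind prenylated RABs, PRA1.B5 was called. It fell from 166, 207 and 180 to 79.7, 79.4 and 85.9, with a wide gap between the genotypes (-1.17, SE 0.16, adjusted p = 0.0022). Each of these lists thus had 1 gene lower and none higher, against 3.22% and 8.84% of all features.

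**Figure D5:**
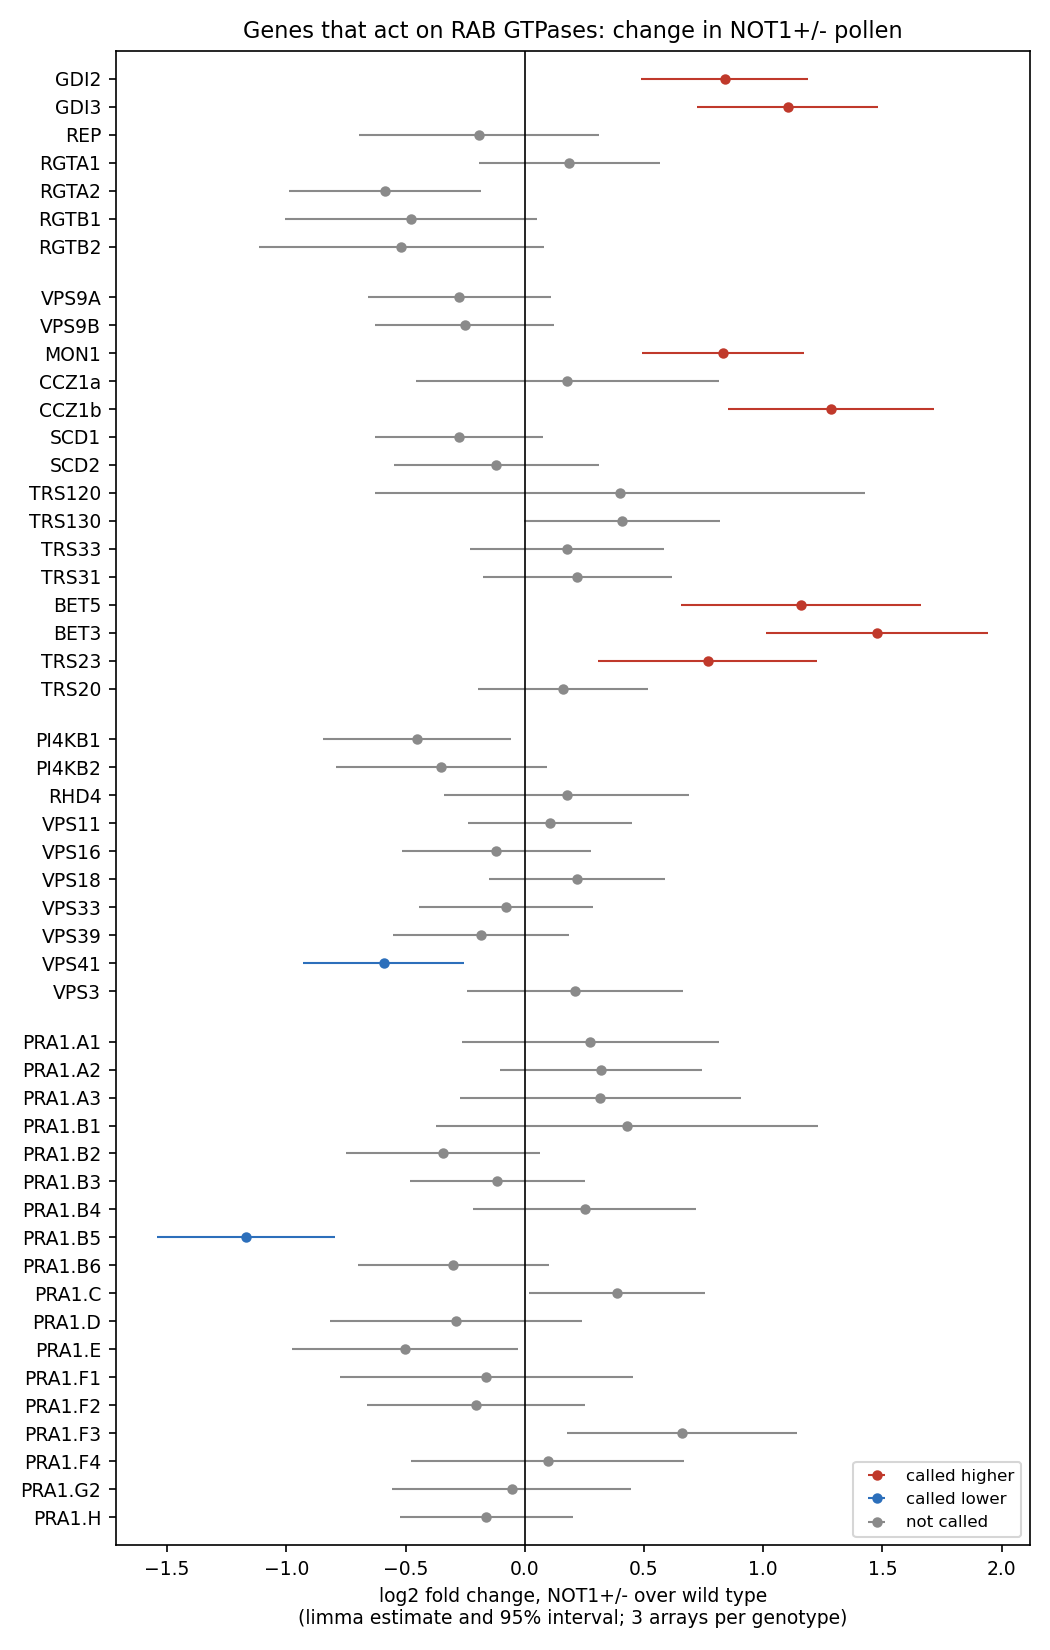
Log2 fold change in NOT1+/- over wild type with 95% interval from limma for 50 genes that act on RAB proteins, from top to bottom delivery and prenylation, exchange factors, effectors and tethers, and PRA1 genes. The 7 genes called higher (red) are GDI and exchange factor genes, and the 2 called lower (blue) are VPS41 and PRA1.B5.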

How the data were processed

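RNA of 6 samples, 3 per genotype, was measured on 1-colour Affymetrix arrays for Arabidopsis from 100 ng of total RNA per sample, per the labels' protocols. The authors deposited 1 intensity per locus on a linear scale; the submitters' processing notes name Affymetrix Expression Console but not its version, and how background, summary and scale were set is not stated there. Each array had a lowest value of 1. Log2 of the intensity, with no offset and no filter, was modelled in R 4.3.3 with limma 3.58.1 (functions lmFit and eBayes, NOT1+/- minus wild type). Benjamini-Hochberg adjustment covered all 27827 features. Intervals are 95% intervals of that fit. Means are arithmetic ± SD. Pairs of genes within a group were compared by the difference of their log2 ratios between genotypes, with an exact two-sided permutation test. Only pairs holding a called gene were formed, so these comparisons describe the calls and do not test them independently. All 55 members were found in the RefSeq gene table (TAIR10.1), which served for names and gene order, and none shared its 6 values with another feature. One further gene planned for the delivery and prenylation list is not reported here and is outside its counts. The members, gene lists and markers were chosen with earlier results of these data known. The genes described in most detail are the called genes, RABA4 and RABD2 genes, the member with the highest wild-type mean in each subfamily, called regulators and some uncalled members chosen after their values were seen. A choice by protein identity could not be made, as no protein sequences were used. The fit was tested on simulated data with the SD of each feature. It recovered 15 of 100 features changed by 1 on the log2 scale and 78 of 100 changed by 2. No other features were changed there, whereas 2461 were called higher and 896 lower in the data. The adjustment was thus stricter in the simulation, and these recovery shares do not carry over to the real comparison. A gene that was not called may still have changed. The alternatives were the replicate block, 3 rescalings, eBayes with trend and robust, a filter on dim features, 16 units added before log2, an unequal-variance test and leaving out each array.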

Additional observations from a re-analysis of the deposited data

How the results depend on the processing

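No RAB gene that was called changed direction under any of the 14 alternatives (13 for RABA1c, which was too dim for the test of features above the median level), and 18 of the 44 uncalled members changed sign in at least 1. Falls among RAB genes, 1 as deposited, numbered 10 after quantile normalization, 2 after centring on the 75th percentile or among features above the median level alone, and 4 with trend and robust or with 16 units added. RABA1f turned from 0.08 to -0.54 after quantile normalization. The family median, -0.06, was -0.29 after quantile normalization and 0.07 among features above the median level, where fewer genes were tested. Among regulators, the unequal-variance test called 3 higher, and falls, 2 as deposited, numbered 6 after quantile normalization and 1 with median centring, with the replicate block or without any 1 array. NOT1 kept its direction and lost its call with the replicate block (-0.65, adjusted p = 0.070), with median centring (-0.57, adjusted p = 0.055) and without any 1 array (-0.68 to -0.59, adjusted p 0.053 to 0.118). The replicate numbers paired the samples only by name: deviations of same-numbered samples correlated across features at 0.11, 0.13 and -0.01. The unequal-variance test called 7 RAB genes higher, without RABA1h, RABC1 and RABD2b. With the replicate block 9 RAB genes were called higher and 1 lower, RABA1h being lost (adjusted p = 0.0501). The causes of the changes between settings were not tested. Shares of all features called are not given for the unequal-variance test, the replicate block, the filter on dim features or fits without 1 array. Signal near or below the array medians limits the sizes given for RABD2c, RABA2d, RABA1c, BET3 and TRS23. BET5 and RABC1 lay above the median on all 3 wild-type arrays. With 16 units added their log2 fold changes of 1.16 and 1.07 were 0.76 and 0.72, so these sizes are uncertain too.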
